A study of Gallus gallus with 2 samples.

Results

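Chromatin remodelling and modifying enzymes set how tightly DNA is packed and which marks it and its histones carry. The group described here holds the ATP-driven remodellers of the SWI/SNF, ISWI and CHD families with their subunits, the ARID and bromodomain (BRD) proteins, lysine demethylases (KDM) and methyltransferases (KMT, SETD), the Polycomb and HP1 proteins (EZH, CBX), histone deacetylases (HDAC), and the enzymes that write or oxidise DNA methylation (DNMT, TET). Members were taken by a rule on gene symbols, which was set with earlier results of these data known. The symbols matched 83 rows of the deposited tables, which gave 82 genes of 16737 once rows that share a symbol were summed. Of the 82, 80 averaged 1 FPKM or more over the pools, the level required for a comparison. CBX7, a Polycomb reader, was at 0.296 and 0.381 FPKM and KDM1B, a histone demethylase, at 0.405 and 0.319 FPKM, and these 2 members enter no count. SMARCB1, SMARCC2, CHD1, CHD3, CHD8, KDM6A, KDM6B, KMT2D, SETD1A, SETDB1, CBX5, CBX6 and HDAC5 were not matched by symbol and are not analysed here.

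The RNA came from hearts of brown leghorn chicken embryos, whose eggs had been kept at 37 °C for 24 h before a single injection into the air sac. The control eggs received 20 µl of 1X PBS, and the other eggs 20 µl of spermine NONOate at 10 µM, a compound that releases nitric oxide (NO) and leaves the polyamine spermine. Hearts were dissected at 45 h, a time the labels do not tie clearly to either the start of incubation or the injection. Each group is 1 pool of 10 hearts and 1 library, so no difference has a replicate check, and no group received spermine alone. The labels do not give the sex of the pooled embryos.

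Expression is given as FPKM, a count of sequenced fragments divided by transcript length and sequencing depth, so levels of different genes can be set side by side. The bracketed range after an FPKM is its deposited 95% interval, which covers the estimation within 1 pool and not the variation between pools. Differences are log2 ratios of FPKM + 1, NO pool over vehicle pool, with an interval that combines both deposited ones, and differences of genes near 0 come out too small on this scale. Positions are those of the deposited tables in the galGal4 build, counted from 1. A gene counts as higher or lower when it differs by at least 1.5-fold on that scale. For the median member, the interval widths implied at least 1573 fragments in the vehicle pool and 1489 in the NO pool. These are not counts of fragments, and the true numbers may be larger. Every member above the filter except ARID5A had at least 100 implied fragments in both.

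The 2 pools differed in markers of many cell types. Of the heart muscle list, 18 of 19 measured genes passed 1.5-fold in the direction of the NO pool, and their summed level was 2862 FPKM in the vehicle pool and 17913 FPKM in the NO pool. The defining genes of heart muscle were present in both, and none of the 19 stood at 0. Erythroid genes were at 128 and 1743 FPKM in sum, with 6 of 6 higher and HBZ at 0 in the vehicle pool, and endothelial and endocardial genes at 109 and 186 FPKM, with 6 of 10 higher. Neural genes were at 559 and 363 FPKM, with 9 of 13 lower, 2 of 13 higher and ZIC1 at 0 in the NO pool. Neural crest genes were at 345 and 81.9 FPKM, with 11 of 13 lower and 1 higher, and endoderm genes at 1275 and 300.0 FPKM, with 9 of 9 lower. Of the somite list only 2 genes passed the filter, both lower, at 49.2 and 6.24 FPKM in sum, and MESP2 was at 0 in the NO pool. Genes of dividing cells were at 1475 and 1320 FPKM, with 2 of 14 lower and 0 higher. In tissue pools, fewer cells of a type and less RNA per cell cannot be told apart, and the part of cell makeup in the differences given below was not tested.

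Across the group, more members were lower than higher in the NO pool, at shares not far from those of all genes. Of the 80 members, 23 (28.75%) were at least 1.5-fold lower, against 22.4% of the 10824 genes tested, and 5 (6.25%) were at least 1.5-fold higher, against 9.59%. At 2-fold, 11 of the 80 members were lower, against 10.3% of all genes, and 1 of the 80 was higher, against 3.65% of all genes. SMARCA2, SMARCD3, HDAC9 and HDAC11 were among the higher members. Among the lower members were SMARCA4, SMARCC1, SMARCD1, SMARCD2, ARID3B, ARID3C, CHD6, CHD7, BRD2, KDM2A, KDM2B, KDM5A, SETD2, SETD5, SETD9, CBX1, CBX2, HDAC7, DNMT1, DNMT3A, DNMT3B and TET3. The median log2 difference was −0.25 for the members and −0.11 for all genes tested, and 62 of the 80 members lay below 0 (77.5%), against 58.7% of all genes. The deposited intervals of the 2 pools were apart for 61 members (76.25%), a share close to the 70.9% of all genes, so intervals apart do not set a member off. A trimmed mean scaling moved the median of all genes to 0.01 and left 17 members (21.2%) lower and 5 (6.25%) higher, against 18.0% and 12.9% of all genes. The 5 higher members stayed higher under all of the 4 other scalings tried. Of the 23 lower members, 15 stayed lower under all 4, and between 17 and 22 did so under any 1 of them. With a pseudocount of 5 FPKM in place of 1, only 2 members (2.5%), SMARCA2 and HDAC9, were higher, against 5.36% of all genes.

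**Figure D1:**
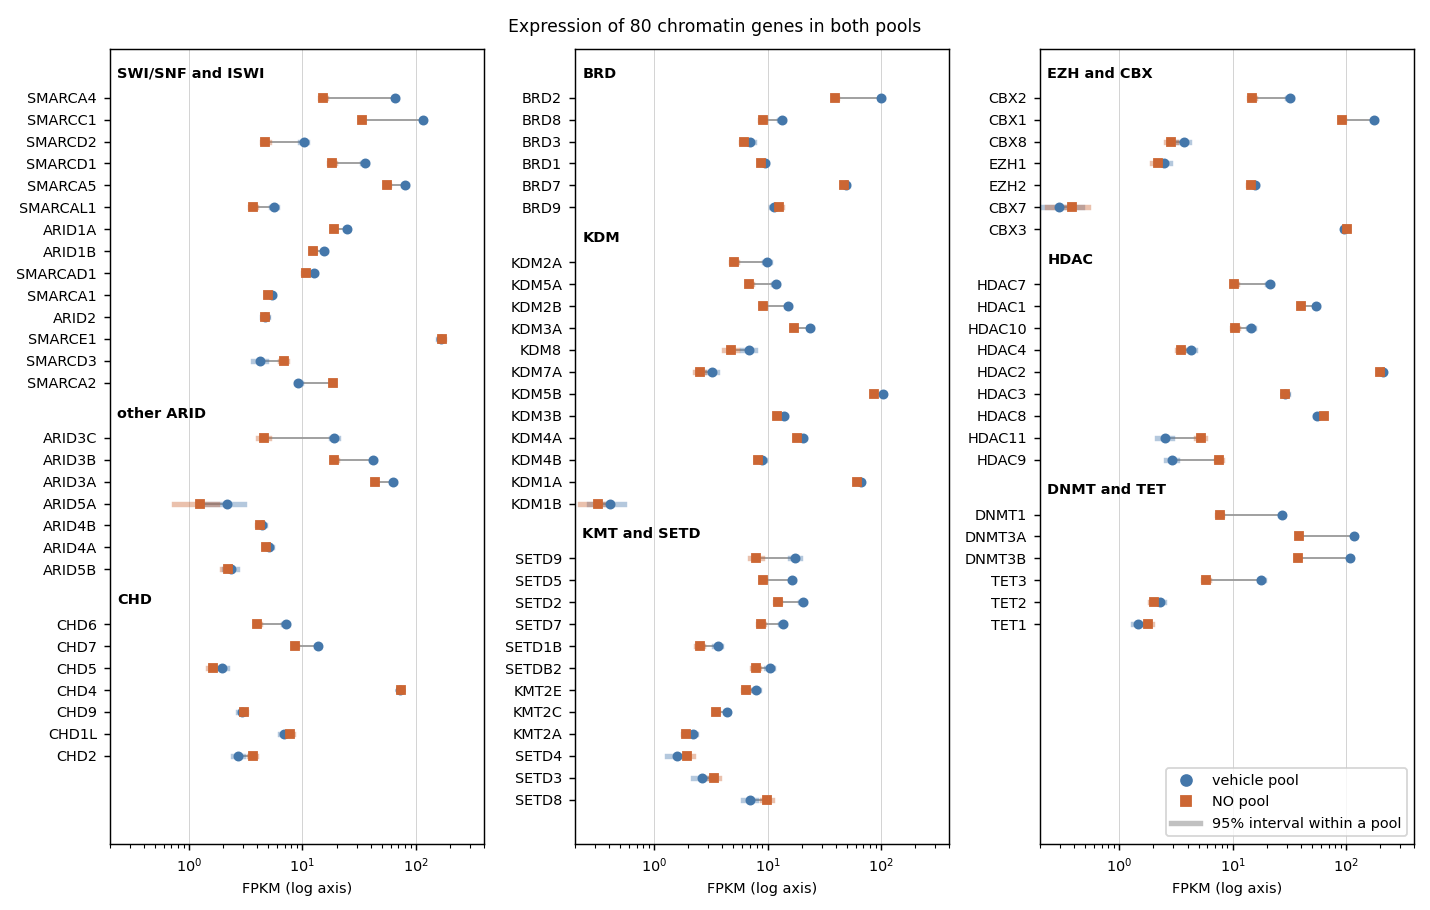
FPKM of 80 of the 82 members (log axis) in the vehicle pool (circles) and the NO pool (squares), by class, with bars for the deposited 95% interval within a pool. Members within a class are ordered by their log2 difference. SMARCA4, ARID3C, SMARCC1, DNMT1, DNMT3A and DNMT3B lie well to the left in the NO pool relative to control, while SMARCE1, CHD4, CBX3 and HDAC3 nearly coincide.

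The SWI/SNF (BAF) complex slides and evicts nucleosomes with 1 of the alternative ATPases, SMARCA4 (also called BRG1) or SMARCA2 (BRM). These paralogues stood in opposite directions. SMARCA4 (ENSGALG00000026992, scaffold JH375620.1, 21 to 4418) was at 66.1 FPKM (63.6 to 68.7) in the vehicle pool and 15.3 FPKM (14.4 to 16.2) in the NO pool, a log2 difference of −2.04 (−2.14 to −1.94), the lowest of all members. SMARCA2 (ENSGALG00000010164, chromosome Z, 26195620 to 26294557) was at 9.19 FPKM (8.74 to 9.64) and 18.7 FPKM (18.1 to 19.2), a log2 difference of 0.95 (0.87 to 1.02). Within a pool, where a factor common to all its genes cancels, the ratio of SMARCA2 to SMARCA4 was 0.139 (0.131 to 0.148) in the vehicle pool and 1.22 (1.14 to 1.30) in the NO pool. SMARCA4 thus supplied 87.8% of the summed FPKM of this pair in the vehicle pool and 45.1% in the NO pool, and the sum was 75.3 and 34.0 FPKM. The row of SMARCA4 spans 4398 bases from base 21 of an unplaced scaffold. Its FPKM thus rests on a short gene model that may be only part of the gene. This limits the comparison of its level with SMARCA2, and so the ratios and shares of the pair. Unplaced scaffolds had a median of −0.67 over 470 genes, and SMARCA4 was at −1.37 when set against that median. SMARCA2 was at 0.98 against the median of macrochromosomes. The gap between these 2 values is smaller in size than the log2 ratio of SMARCA2 to SMARCA4 in the vehicle pool, −2.85. The reversed order of the pair in the NO pool thus holds as deposited and not on that scale. SMARCA2 lies on the Z sex chromosome, whose 491 tested genes had a median of −0.06, against −0.03 over other macrochromosomes.

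Of the accessory subunits, SMARCC1, SMARCD1 and SMARCD2 were lower and SMARCD3 was higher. SMARCC1 (BAF155), a scaffold subunit of the complex (ENSGALG00000005048, chromosome 2, 771101 to 833143), was at 116 FPKM (114 to 118) and 33.3 FPKM (32.5 to 34.1), a log2 difference of −1.77 (−1.81 to −1.73). The 3 SMARCD proteins (BAF60) are alternative subunits that link the complex to transcription factors, and SMARCD3 (BAF60c) is known from mouse embryos for its role in heart muscle formation. SMARCD3 (ENSGALG00000013049, chromosome 2, 29878 to 90506) was at 4.22 FPKM (3.68 to 4.75) and 6.85 FPKM (6.32 to 7.38), a log2 difference of 0.59 (0.41 to 0.77), which is only just past 1.5-fold. SMARCD1 was at 35.3 and 18.3 FPKM, for a difference in log2 of −0.92 (−1.02 to −0.81), and SMARCD2 at 10.2 and 4.73 FPKM, −0.97 (−1.09 to −0.86). SMARCD1 remained the most abundant of the 3 in both pools, and SMARCD3 made up 8.47% in the vehicle pool and 23.0% in the NO pool of their sum. The ratio of SMARCD2 to SMARCD3 was 2.43 (2.11 to 2.80) and 0.691 (0.623 to 0.765), so the order of these 2 genes was reversed, whereas the ratio of SMARCD1 to SMARCD2 was 3.45 (3.18 to 3.74) and 3.86 (3.54 to 4.21). SMARCD2 overlaps the proteasome gene PSMC5 over 3257 bases (159 and 200.1 FPKM), and reads of overlapping genes may be split between them.

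The other SWI/SNF members lay within 1.5-fold. SMARCE1 (BAF57), the most abundant member of this class by mean level, was at 165 FPKM (158 to 173) and 169 FPKM (162 to 176). ARID1A and ARID1B, alternative DNA-binding subunits of BAF, were at 24.5 and 18.9 FPKM and at 15.5 and 12.5 FPKM. ARID2, which marks the related PBAF complex, was at 4.69 and 4.70 FPKM. Log2 differences were −0.36, −0.29 and 0.00 for these 3. Of the ISWI ATPases, which space nucleosomes, SMARCA5 was at 80.5 and 55.6 FPKM, for a difference in log2 of −0.53 (−0.60 to −0.46), and SMARCA1 at 5.36 and 5.01 FPKM, −0.08 (−0.16 to −0.00). The replication fork helicase SMARCAL1 had −0.50 and the remodeller SMARCAD1 −0.23. In all, 4 of the 14 members of this class (28.6%) were lower and 2 (14.3%) higher, against 22.4% and 9.59% of all genes. The class median was −0.33 and ranged from −0.34 to −0.17 over the alternatives.

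**Figure D2:**
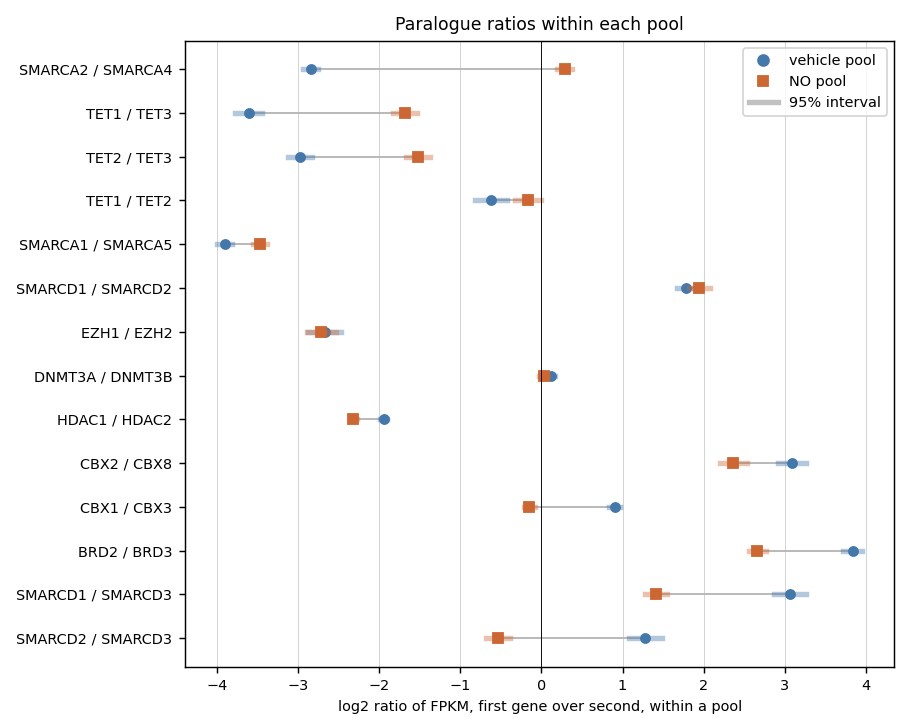
Log2 ratio of the FPKM of 2 paralogues within the vehicle pool (circles) and within the NO pool (squares) for 14 pairs, with bars for the 95% interval combined from both deposited intervals. A factor common to all genes of a pool cannot move these points, whereas setting genes against their chromosome size class can where paralogues lie in different classes. SMARCA2 over SMARCA4 shifted most, by 3.13, and crossed 0 as deposited, while EZH1 over EZH2 shifted by −0.04. The genes of each of these pairs lie in different classes, and the SMARCA4 row may be only part of the gene.

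DNA methylation enzymes showed the lowest median of the 9 classes, at −1.48. Of the 6, 4 (66.7%) were lower and 0 higher, against 22.4% and 9.59% of all genes. DNMT1, which copies methylation onto new strands after replication (ENSGALG00000028997, scaffold JH375489.1, 21 to 10786), was at 27.0 FPKM (25.9 to 28.0) in the vehicle pool and 7.68 FPKM (7.25 to 8.12) in the NO pool, a log2 difference of −1.69 (−1.78 to −1.60). DNMT3A (ENSGALG00000003993, chromosome 3, 104239248 to 104259227), an enzyme that sets methylation at new sites, was at 117 FPKM (115 to 119.7) and 38.4 FPKM (37.3 to 39.5), a difference of −1.58 (−1.64 to −1.53). DNMT3B (ENSGALG00000006634, chromosome 20, 10595952 to 10609143), its paralogue, was at 108 FPKM (106 to 109.6) and 37.6 FPKM (36.7 to 38.5), a difference of −1.49 (−1.53 to −1.45). The de novo enzymes were thus at nearly equal levels in both pools, with a ratio of DNMT3A to DNMT3B of 1.09 (1.06 to 1.12) and 1.02 (0.983 to 1.06), and both exceeded DNMT1 severalfold. DNMT1 lies on an unplaced scaffold and was at −1.02 when set against the median of such scaffolds. Its row starts at base 21 of the scaffold, so its FPKM may rest on part of the gene, which limits the comparison of its level with the de novo enzymes.

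TET enzymes oxidise methylated cytosine, the first step of its removal. TET3 (ENSGALG00000013436, chromosome 22, 2808919 to 2820475) was at 17.9 FPKM (17.1 to 18.8) and 5.80 FPKM (5.42 to 6.18), a log2 difference of −1.48 (−1.58 to −1.37). TET2 was at 2.27 and 2.02 FPKM, for a difference in log2 of −0.11 (−0.23 to 0.01), and TET1 at 1.47 and 1.81 FPKM, 0.18 (0.07 to 0.30). TET3 was the most abundant of the family in both pools, and it held 82.8% in the vehicle pool and 60.3% in the NO pool of the family's summed FPKM. Among partners of DNA methylation, 3 of 5 measured genes (60%) were lower and 0 higher, against 22.4% and 9.59% of all genes. The glycosylase MBD4 was at 22.1 and 8.31 FPKM (−1.31) and the stress gene GADD45B at 34.3 and 16.1 FPKM (−1.04). GADD45B lies on an unplaced scaffold, where 56.4% of all genes were lower. The ubiquitin ligase UHRF2 was at 16.8 and 10.1 FPKM (−0.68). UHRF1, which recruits DNMT1 to replicated DNA, was at 39.8 and 44.5 FPKM (0.16). The replication genes PCNA and MCM5, of the list of dividing cells, were at 336 and 322 FPKM and at 112 and 51.0 FPKM. MCM5 had the lowest difference of that list, at −1.12. The list as a whole had a median of −0.12, with 2 of 14 (14.3%) lower and 0 higher. The part of cell division in the DNMT1 difference was not tested.

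Histone deacetylases remove acetyl groups from histone tails, and the class IIa members HDAC4, HDAC7 and HDAC9 bind MEF2 factors of muscle. HDAC9, known from mice as a brake on growth of heart muscle cells (ENSGALG00000010854, chromosome 2, 29228468 to 29653602), was at 2.91 FPKM (2.59 to 3.22) in the vehicle pool and 7.59 FPKM (7.20 to 7.99) in the NO pool. Its log2 difference of 1.14 (1.00 to 1.27) was the highest of the group, and it was the 1 member at least 2-fold higher. HDAC7, known from mouse embryos for its role in endothelium (ENSGALG00000006311, linkage group LGE22C19W28_E50C23, 378550 to 397362), was at 21.2 FPKM (20.1 to 22.3) and 10.4 FPKM (9.78 to 10.9), a difference of −0.97 (−1.07 to −0.86). The 10 endothelial markers had a median of 0.68 in the same pools. HDAC4 was at 4.30 and 3.47 FPKM (−0.24). In the vehicle pool HDAC7 was the most abundant of these 3, by a wide margin, and in the NO pool HDAC7 and HDAC9 were at 10.4 and 7.59 FPKM.

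HDAC11, the sole class IV enzyme, was at 2.54 FPKM (2.17 to 2.92) and 5.21 FPKM (4.76 to 5.66), a difference of 0.81 (0.62 to 0.99). The class I enzymes, which work mostly within corepressor complexes, all lay within 1.5-fold. HDAC2, the most abundant deacetylase, was at 211 FPKM (207 to 215) and 199 FPKM (196 to 202). HDAC1 was at 54.7 and 39.7 FPKM (−0.45), HDAC3 at 29.1 and 28.9 FPKM (−0.01) and HDAC8 at 55.2 and 63.5 FPKM (0.20). HDAC10, which also deacetylates acetylated polyamines, was at 14.6 and 10.5 FPKM (−0.44). Over the class, 2 of 9 members (22.2%) were higher and 1 (11.1%) lower, against 9.59% and 22.4% of all genes. The class median was −0.09 and reached 0.08 under other scalings.

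**Figure D3:**
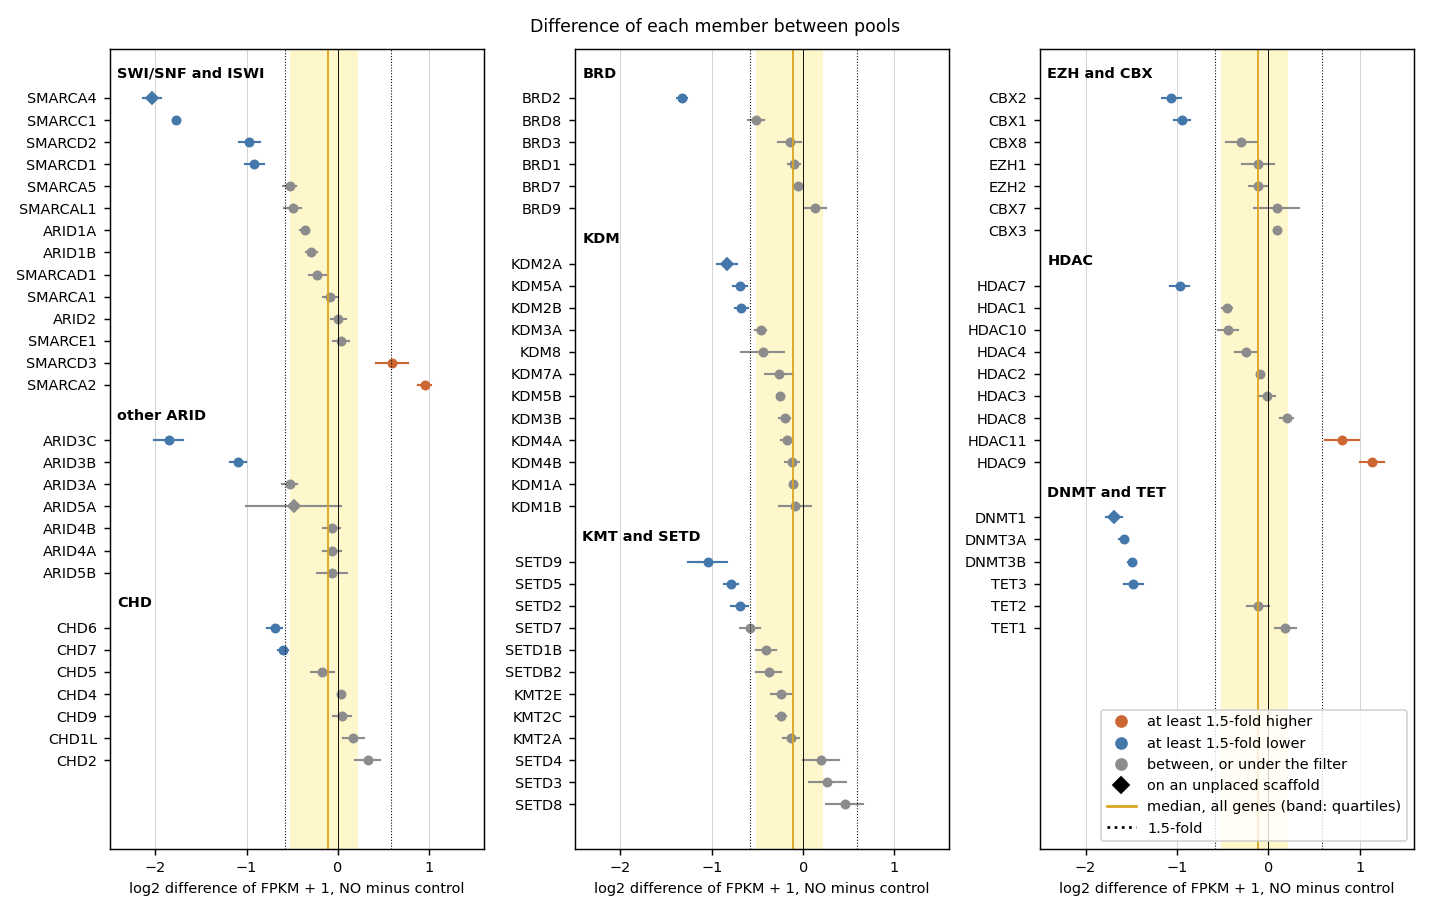
Log2 difference of FPKM + 1, NO minus control, for 80 of the 82 members by class, with bars for the combined 95% interval. Coloured points pass 1.5-fold (dotted lines), diamonds lie on unplaced scaffolds, and the line and band give the median (−0.11) and quartiles of all genes tested. The 4 higher members shown belong to the SWI/SNF and HDAC classes, and 4 of the 6 DNMT and TET members lie at −1.48 or lower.

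Polycomb complexes silence genes: EZH2 or EZH1 methylates histone H3 within PRC2, and CBX proteins such as CBX2, CBX7 and CBX8 read that mark within PRC1. The PRC2 enzymes lay near the median of all genes. EZH2 was at 15.7 FPKM (14.9 to 16.5) and 14.5 FPKM (13.8 to 15.2), a log2 difference of −0.11 (−0.21 to −0.01), and EZH1 at 2.46 and 2.20 FPKM, −0.11 (−0.29 to 0.06). Their ratio, EZH1 to EZH2, was 0.157 (0.136 to 0.181) and 0.152 (0.135 to 0.172). Of the PRC1 readers, CBX2 was lower and CBX8 lay within 1.5-fold. CBX2 (ENSGALG00000023338, chromosome 18, 9907403 to 9915762) was at 32.0 FPKM (30.4 to 33.6) and 14.8 FPKM (14.0 to 15.6), a difference of −1.06 (−1.16 to −0.96). CBX8, which lies close by, was at 3.75 and 2.87 FPKM (−0.29). The ratio of CBX2 to CBX8 was 8.54 (7.56 to 9.64) in the vehicle pool and 5.16 (4.61 to 5.77) in the NO pool.

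CBX1 and CBX3 are HP1 proteins, which bind methylated histone H3 in heterochromatin. CBX1 (ENSGALG00000000230, chromosome 27, 3842373 to 3850380) was at 178 FPKM (169.9 to 185) and 91.7 FPKM (87.6 to 95.7), a difference of −0.95 (−1.03 to −0.86). CBX3 was at 95.1 FPKM (93.1 to 97.0) and 102 FPKM (100.1 to 104), a difference of 0.10 (0.06 to 0.14). As deposited, CBX1 was the more abundant in the vehicle pool and CBX3 in the NO pool, with ratios of 1.87 (1.78 to 1.96) and 0.900 (0.859 to 0.944). CBX1 lies on a microchromosome and CBX3 on a macrochromosome, and against the medians of these classes they were at −0.72 and 0.13. The gap between these values is smaller than the log2 ratio of CBX1 to CBX3 in the vehicle pool, 0.90, so the change of order does not hold on that scale. Of the other Polycomb genes, 4 of 20 measured (20%) were lower and 0 higher, against 22.4% and 9.59% of all genes. Their median was −0.40. PHC2 and PHC1, PRC1 subunits, were at 62.4 and 23.2 FPKM (−1.39) and at 12.5 and 6.17 FPKM (−0.92), and the histone chaperone RBBP4 was at 246 and 152 FPKM (−0.69).

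Bromodomain proteins bind acetylated lysine, and BRD2 and BRD3 belong to the BET family, which couples acetylated chromatin to transcription. BRD2 (ENSGALG00000000156, chromosome 16, 89695 to 93569) was at 101 FPKM (98.0 to 103) in the vehicle pool and 39.5 FPKM (38.2 to 40.7) in the NO pool, a difference of −1.33 (−1.38 to −1.27). All 3875 bases of its row overlap an unnamed gene, which was at 0.511 and 0.208 FPKM. BRD3 was at 7.02 and 6.25 FPKM (−0.15), and the ratio of BRD2 to BRD3 was 14.3 (13.2 to 15.5) in the vehicle pool and 6.32 (5.87 to 6.80) in the NO pool. The PBAF subunit BRD7 was at 49.6 and 47.6 FPKM (−0.06), BRD9 of non-canonical BAF at 11.5 and 12.7 FPKM (0.13), BRD8 of the TIP60 complex at 13.4 and 9.04 FPKM (−0.52) and the acetyltransferase scaffold BRD1 at 9.52 and 8.83 FPKM (−0.10).

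All 11 measured lysine demethylases lay below 0 as deposited, between −0.84 and −0.11, and 8 or 9 of the 11 did so after 3 of the 4 other scalings. Of all genes, 58.7% lay below 0 as deposited. The 3 were trimmed mean scaling, upper quartile scaling and the setting against chromosome size classes, where the median of all genes was 0.01, 0.04 and 0. The share of all genes below 0 was not recomputed there. Of the 11 demethylases, 3 (27.3%) were at least 1.5-fold lower and 0 higher, against 22.4% and 9.59% of all genes. The class median was −0.27, with a range of −0.35 to −0.15 over the alternatives. KDM5B, which removes methyl groups at active promoters, was the most abundant at 105 FPKM (103 to 106) and 87.5 FPKM (86.5 to 88.6), with a difference of −0.26 (−0.28 to −0.23). KDM1A (LSD1), the flavin-dependent enzyme of the CoREST complex, was at 66.1 FPKM (64.9 to 67.4) and 61.1 FPKM (60.1 to 62.0), a log2 difference of −0.11 (−0.15 to −0.08). The 3 lower members were KDM2A at 9.83 and 5.07 FPKM (−0.84), KDM5A at 11.8 and 6.92 FPKM (−0.69) and KDM2B, which brings PRC1 to unmethylated CpG islands, at 15.3 and 9.20 FPKM (−0.68). KDM2A lies on an unplaced scaffold (ENSGALG00000013286, scaffold JH376180.1, 68031 to 99987) and was at −0.17 when set against the median of such scaffolds, within 1.5-fold. KDM2B and KDM5A also came within 1.5-fold under other scalings, at −0.45 and −0.54 at the nearest to 0, so none of the 3 was lower under every scaling. KDM3A, KDM3B, KDM4A, KDM4B, KDM7A and KDM8 lay between −0.47 and −0.12. After upper quartile scaling the median of all genes was 0.04, and 48 of the 80 members lay below 0 in place of 62, so small differences below 0 depend on the scaling.

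Of 12 methyltransferases of the KMT and SETD families, 3 (25%) were lower and 0 higher, against 22.4% and 9.59% of all genes. The class median was −0.31 and ranged from −0.58 to −0.13 over the alternatives. SETD9 (ENSGALG00000014719, chromosome Z, 17323851 to 17329872) was at 17.5 FPKM (15.7 to 19.4) and 7.98 FPKM (6.99 to 8.97), a difference of −1.05 (−1.26 to −0.83). SETD5 was at 16.6 and 9.15 FPKM (−0.79). SETD2, which methylates histone H3 along transcribed genes, was at 20.5 and 12.3 FPKM (−0.70) and had the highest mean level of the class. All 36943 bases of the SETD5 row overlap TADA3, a gene at 25.5 and 9.45 FPKM. All 6022 bases of the SETD9 row overlap an unnamed gene at 2.97 and 2.88 FPKM, and SETD2 overlaps another unnamed gene. Reads of overlapping genes may be split between them, and the part of this in the differences was not tested. SETD7, at 13.6 and 8.72 FPKM, missed the 1.5-fold size narrowly with −0.58 (−0.69 to −0.48). KMT2A and KMT2C, of the MLL family that marks promoters and enhancers, were at 2.18 and 1.91 FPKM and at 4.36 and 3.54 FPKM. KMT2E was at 7.89 and 6.52 FPKM, and all 3 lay within 1.5-fold. SETD8, which methylates histone H4 in dividing cells, had the highest difference of the class at 0.45 (0.25 to 0.66), and passed 1.5-fold under 2 of the 4 other scalings. SETD2 came within 1.5-fold after trimmed mean and upper quartile scaling (−0.57 and −0.54) and SETD5 against its chromosome size class (−0.57), while SETD9 was lower under all 4. SETD1B and SETDB2 had −0.40 and −0.38, and SETD4 and SETD3, the latter a methyltransferase of actin, 0.19 and 0.27.

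CHD remodellers were the 1 class with a median above 0, at 0.04, and its 7 members spanned −0.69 to 0.33. CHD4, the ATPase of the NuRD complex, was at 72.5 FPKM (71.4 to 73.7) and 74.4 FPKM (73.5 to 75.3), a difference of 0.04 (0.01 to 0.06). CHD7, known for its role in neural crest and in the human CHARGE syndrome, was at 13.7 FPKM (13.2 to 14.1) and 8.65 FPKM (8.39 to 8.92), a difference of −0.60 (−0.66 to −0.55). CHD6 was at 7.10 and 4.01 FPKM (−0.69). CHD5, CHD9, CHD1L and CHD2 were at 1.95 and 1.62 FPKM, at 2.92 and 3.04 FPKM, at 6.84 and 7.81 FPKM and at 2.72 and 3.66 FPKM. Both lower members, 2 of 7 (28.6%, against 22.4% of all genes), dropped below 1.5-fold after trimmed mean scaling. The median of the class lay at 0.17 at highest and −0.28 at lowest over the alternatives.

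Among the other ARID proteins, 2 of 7 (28.6%) were lower and 0 higher, against 22.4% and 9.59% of all genes. The class median was −0.49. That median lay at −0.04 against chromosome size classes and at −1.09 over the 3 members with a mean of at least 5 FPKM, whereas ARID3B and ARID3C were lower under every scaling. ARID3C (ENSGALG00000005839, chromosome Z, 7784790 to 7796943) was at 19.2 FPKM (17.8 to 20.5) and 4.58 FPKM (4.09 to 5.07), a difference of −1.85 (−2.01 to −1.70), the second lowest of the group after SMARCA4. ARID3B (ENSGALG00000001376, chromosome 10, 1982898 to 2011339), needed in mouse embryos for heart and neural crest development, was at 42.0 FPKM (40.2 to 43.8) and 19.2 FPKM (18.2 to 20.1), a difference of −1.09. ARID3A, the most abundant of the 3 paralogues in both pools, was at 63.0 and 43.3 FPKM (−0.53). ARID4A and ARID4B, subunits of the Sin3 deacetylase complex, had −0.07 and −0.07, and ARID5B −0.06. ARID5A, on an unplaced scaffold with 24 implied fragments in each pool, had −0.49 (−1.01 to 0.04).

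Partner genes of these enzymes, which the symbol rule does not take, were lower in a like share. Of 102 such genes measured, 30 (29.4%) were lower and 3 (2.94%) higher, against 22.4% and 9.59% of all genes. Their median was −0.31, and that of all genes −0.11. The 3 higher genes were SMYD1, SMYD2 and HAT1. SMYD1, a methyltransferase of heart and skeletal muscle, was at 23.8 FPKM (22.1 to 25.5) in the vehicle pool and 112 FPKM (107 to 117) in the NO pool, a difference of 2.19 (2.07 to 2.31). SMYD2 was at 22.3 and 36.1 FPKM (0.67), and HAT1, which acetylates newly made histone H4, at 29.4 and 51.3 FPKM (0.79). Of 24 other histone methyltransferases and their cofactors, 2 (8.33%) were higher and 3 (12.5%) lower. The lower ones included ASH2L at 30.3 and 16.3 FPKM (−0.86) and NSD1 at 8.89 and 4.47 FPKM (−0.86).

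Acetyltransferases, whose marks the HDACs remove, split widely, with 5 of 11 (45.5%) lower and 1 (9.09%) higher. The shares of all genes to set beside this and each list below were 22.4% lower and 9.59% higher. NCOA1 was at 9.35 and 2.70 FPKM (−1.48), KAT2A at 34.5 and 15.7 FPKM (−1.09), and CREBBP, a coactivator shared by many pathways, at 14.1 and 6.33 FPKM (−1.05). Of NuRD, Sin3 and CoREST partners, 6 of 13 (46.2%) were lower and 0 higher. The lower ones included SIN3A at 23.3 and 7.87 FPKM (−1.45) and MBD3 at 103 and 48.7 FPKM (−1.07). Of other remodellers, 4 of 11 (36.4%) were lower and 0 higher. BAZ2A, a partner of SMARCA5 at ribosomal genes, was at 25.5 and 5.71 FPKM (−1.98), CECR2 at 16.9 and 5.50 FPKM (−1.46) and BAZ1B at 39.0 and 24.5 FPKM (−0.65). Of SWI/SNF partners, 2 of 8 (25%) were lower and 0 higher. The 2 were GLTSCR1 at 8.48 and 2.47 FPKM (−1.45) and DPF2 at 39.1 and 19.5 FPKM (−0.97), and PHF10 had −0.37. GLTSCR1, DPF2 and BAZ2A lie on unplaced scaffolds, where 56.4% of all genes were lower and the median was −0.67. Partner genes were not set against that median. DPF3, known as a heart and muscle partner of the complex, was under the filter at 0.450 and 0.913 FPKM. Of sirtuins 2 of 6 (33.3%) were lower and 0 higher, SIRT5 with −1.01 and SIRT2 with −0.74, and SIRT1 had −0.27. SIRT2 also lies on an unplaced scaffold. Of other demethylases 1 of 4 (25%) was lower and 0 higher, JMJD6 with −0.88, while JMJD1C had −0.30 and JMJD4 0.24.

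By level, all 23 lower members averaged at least 5 FPKM. Of the 24 members that averaged 20 FPKM or more, 10 (41.7%) were lower and 0 higher, against 19.9% and 10.7% of the 3237 genes at that level. Of the 35 between 5 and 20 FPKM, 13 (37.1%) were lower and 4 (11.4%) higher, against 22.4% and 9.07% of 4367 genes. Of the 21 under 5 FPKM, 0 were lower and 1 (4.76%), HDAC11, was higher, against 24.9% and 9.19% of 3220 genes. The pseudocount compresses differences of low genes, among members and all genes alike. With a pseudocount of 0.1 FPKM, 26 members (32.5%) were lower, against 25.8% of all genes. The added ones were ARID5A, SMARCAL1 and SETD7, with means of 1.71, 4.64 and 11.1 FPKM. Of these, ARID5A and SMARCAL1 average under 5 FPKM, so the count of 0 lower members there holds for a pseudocount of 1. The 24.9% of all genes at that level was taken with the same pseudocount, and its part in the gap was not tested. Shares of all genes by level were not recomputed at 0.1 FPKM. In sum, the members took 0.535% of all FPKM in the vehicle pool and 0.342% in the NO pool.

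Position in the genome build also went with the differences. Members on microchromosomes made up 41.25% of those measured, against 32.9% of all genes. They had a median of −0.36 (11 of 33, or 33.3%, lower and 2, or 6.06%, higher). All genes there had −0.22, with 29.2% lower and 6.90% higher. Members on macrochromosomes had a median of −0.11 (7 of 35, or 20%, lower and 3, or 8.57%, higher). All genes there had −0.03, with 15.2% lower and 11.2% higher. These shares of members were near those of all genes. Of the 5 members on unplaced scaffolds, among them SMARCA4, DNMT1, KDM2A and ARID5A, 4 were lower, and the median of the 5 was −0.84, against 56.4% lower and a median of −0.67 for all 470 genes of such scaffolds. Without the scaffolds, 19 of 75 members (25.3%) were lower and 5 (6.67%) higher, against 20.8% and 9.9% of all genes. The part of position in these differences was not tested beyond these values.

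**Figure D4:**
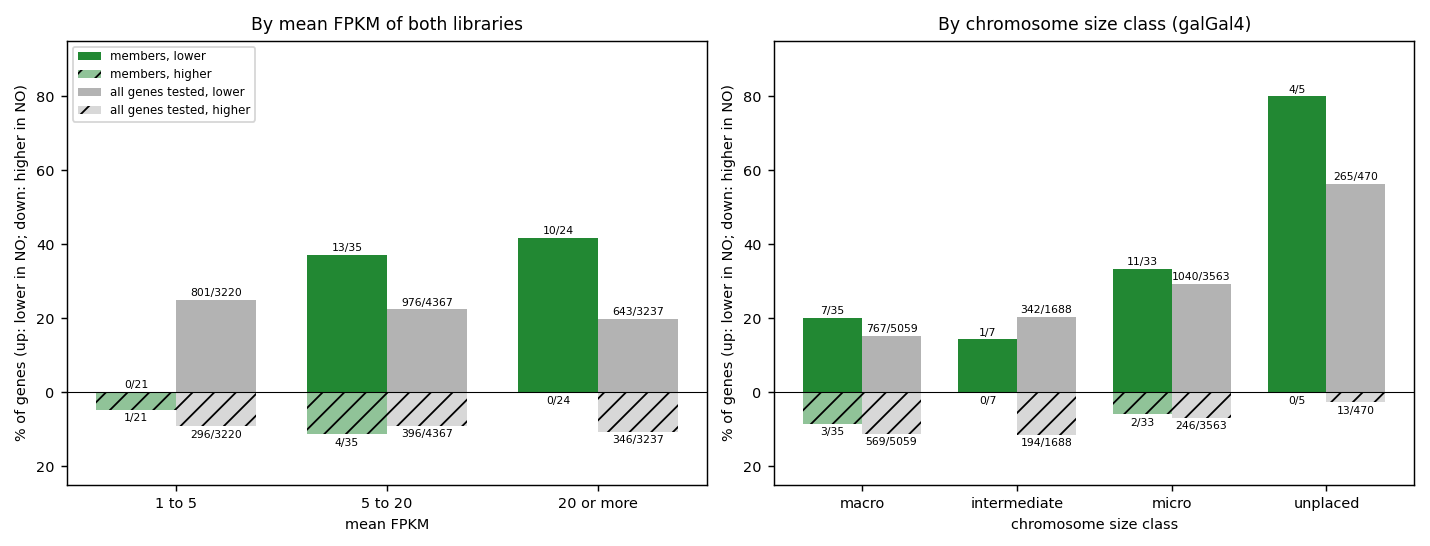
Percent of genes at least 1.5-fold lower (solid bars, upward) and higher (hatched bars, downward) in the NO pool, for the members (green) and for all genes tested (grey), by mean FPKM (left) and by chromosome size class in galGal4 (right). Counts stand at the bars. Lower members make up 10 of 24 in the highest level bin and 0 of 21 in the lowest, and lower genes of either kind are most frequent on unplaced scaffolds.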

How the data were processed

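STAR 2.4.2a served as aligner, with galGal4 and the annotation of Ensembl release 81, and Cufflinks 2.2.1 gave the expression estimates, per the labels, the series design text and the submitters' processing notes, where Cuffdiff and bcl2fastq are also listed. The deposited values are the authors' FPKM with 95% interval bounds for 17108 rows in each library. They summed to 487268 FPKM in the vehicle pool and 536333 FPKM in the NO pool, and no further scaling is recorded. Strand handling and poly(A) selection are not given in the sources used here.

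Rows were joined by Ensembl identifier, and FPKM of rows with the same symbol were summed, their errors added in quadrature. An interval reaches 2 SD to each side, and FPKM divided by that SD, squared, was taken as the implied fragments, at least 18262183 and 28802333 in all. These figures and the intervals cover estimation error within 1 library. Genes that averaged 1 FPKM or more were compared, with a pseudocount of 1. Each group is 1 library, so no test was made. The start of a row was raised by 1: of 11 mitochondrial coding rows, 9 then had a length divisible by 3, against 0 without. Chromosomes 1 to 5, Z and W were taken as macrochromosomes, 6 to 10 as intermediate, and the rest and linkage groups as microchromosomes. Members and gene lists were chosen with earlier results of these data known, and lists were matched by exact symbol. Of 143 partner names, 34 were not matched and are not analysed here. Members named with values were those at least 1.5-fold different, the extremes and the most abundant of each class, and fixed names. Up to 3 partners of each list with the widest differences were named. Values of 3 genes are not reported here singly, though they stay in all counts and medians. UHRF1, SMYD2, HAT1, DPF3, PCNA and MCM5 were added after their values were seen. Alternatives covered the pseudocount, the filter, scaling, summed rows, scaffolds and depth. Python 3.11.15, numpy 2.4.6 and pandas 2.3.3 were used, and the calculations were tested on simulated data.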

Additional observations from a re-analysis of the deposited data

How the results depend on the processing

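The counts and the median of the 80 members were recomputed under 12 alternatives and 1 added after the data were seen, which left out members that overlap another gene. No alternative reversed the median of the members. It was −0.25 as reported, −0.44 among the 59 members with a mean of at least 5 FPKM, −0.13 after trimmed mean scaling, −0.11 after upper quartile scaling and −0.14 against chromosome size classes. Against those settings the median of all genes was −0.09, 0.01, 0.04 and 0. The count of higher members was 5 as reported, 2 with a pseudocount of 5 and 1 at 2-fold. The count of lower members was 23 as reported, 11 at 2-fold, and between 17 and 26 under the other alternatives. With 1 library per group no library could be left out, and no paired analysis was possible because each group holds 1 library. Depth limited ARID5A, CBX7 and KDM1B most.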

Other observations

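The spans of several members overlap that of another gene of the annotation, and values of some of these neighbours are given here. Overlap was taken from the start and end of each row, without strand or exons, so it need not mean shared transcript sequence. EZH2 overlaps CUL1, a ubiquitin ligase scaffold, over 1027 bases, and CUL1 was at 24.8 FPKM in the vehicle pool and 27.6 FPKM in the NO pool. KMT2E overlaps the splicing kinase gene SRPK2 over 524 bases, which was at 11.8 and 17.1 FPKM. SETDB2 overlaps CAB39L over 176 bases, which was at 3.27 and 10.5 FPKM. SETD2 overlaps the unnamed gene ENSGALG00000005498 over 3173 bases, which was at 38.8 and 28.8 FPKM. In all, 10 of the 82 members overlap another row, and without them 18 of 70 members (25.7%) were at least 1.5-fold lower and 5 (7.14%) higher, against 22.3% and 9.6% of all genes.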
